A study of Rattus norvegicus with 172 samples.

Results

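This account covers the tissue that filled a surgical gap in the rat spinal cord 20 days after the operation, with and without an implant carrying neurotrophin-3 (NT-3). The members are the 6 arrays whose titles give the lesion segment, day 20 and either the NT-3-chitosan tube or the lesion control, of 172 arrays in the whole series. All animals were female Wistar rats, 2 months old, in which the cord was transected at T7-8 and 5 mm of it was taken out. In the NT-3 tube group the gap was filled with a chitosan tube seeded with chitosan carriers of NT-3 (3 arrays, numbered 2, 3 and 5), and in the lesion control group nothing was put in (3 arrays, numbered 1, 2 and 3). Each array holds RNA pooled from 4 animals, of tissue dissected with its dura and meninges. An empty tube was hybridised for the lesion segment on day 3 only, so in that segment on day 20 the tube and the NT-3 in it cannot be told apart. Empty-tube arrays of both stumps on day 20 are in the series but are not compared here. 3 arrays of normal cord are given as a background level.

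NT-3, encoded by Ntf3, is a secreted neurotrophin that binds the receptor tyrosine kinase TrkC (Ntrk3) and, with all other neurotrophins, the receptor p75 (Ngfr). It is known for the survival of proprioceptive sensory neurons and for axon growth. Chitosan is a polysaccharide made from chitin. A gap in the adult cord normally fills with macrophages, fibroblasts and matrix, into which Schwann cells and axons of the dorsal roots can grow.

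Values are log2 RMA signals, so 1 unit is a 2-fold change, and differences are NT-3 tube minus lesion control with their standard error. The words rise and fall are kept for genes whose limma p, after Benjamini-Hochberg adjustment over the 11922 genes tested, was under 0.05. By this rule 2330 genes rose (19.5%) and 1704 fell (14.3%), and at 2-fold or more 375 rose (3.15%) and 597 fell (5.01%). The median difference of all genes was 0.04. Across genes, arrays of the same group correlated at 0.983 to 0.996 and arrays of different groups at 0.944 to 0.965. With calls in 33.8% of genes, the count of members called in any gene list is read against these shares. In bulk tissue, fewer cells of a type and less RNA per cell cannot be told apart, and this holds for every result below.

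The largest rise belonged to Arg1, the arginine-degrading enzyme of alternatively activated macrophages, and the largest fall to Calca, which encodes the sensory neuropeptide CGRP. Chemokines, interleukins and metalloproteinases made up most of the other leading rises. Transcripts of skeletal muscle and of neurons made up most of the leading falls. The fibrillar collagens Col1a1 and Col3a1 differed by 0.05 each and did not pass the test.

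**Figure D1:**
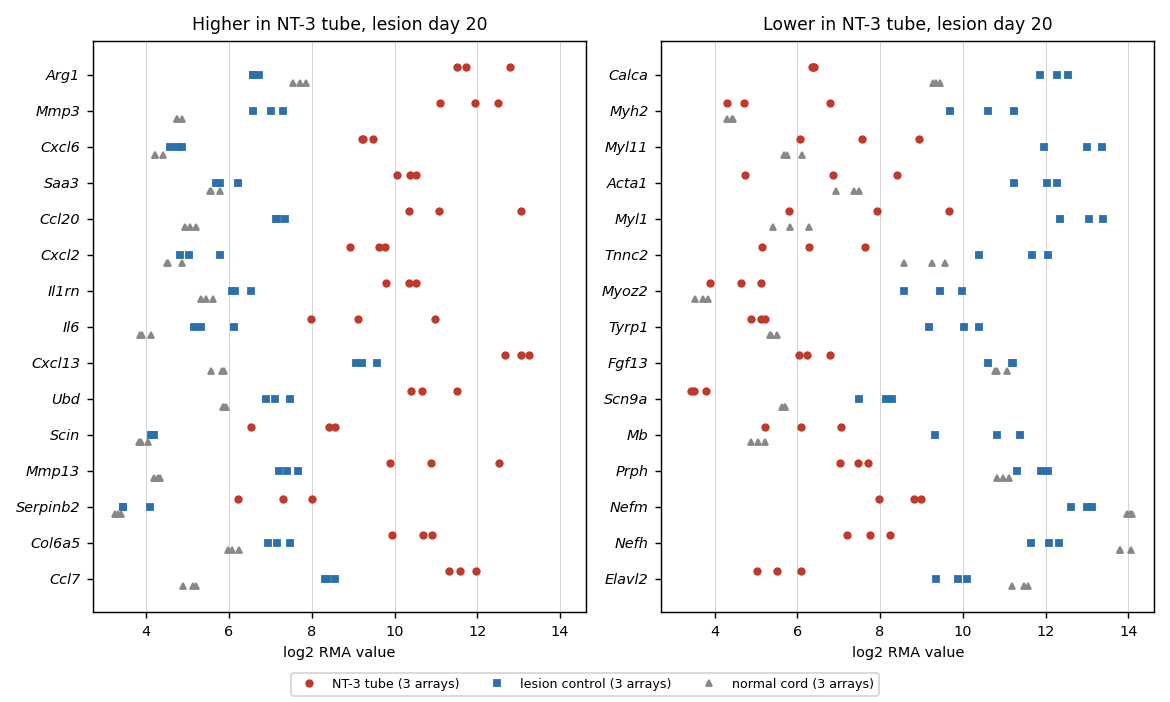
Log2 RMA value of each array for the 15 largest rises (left panel) and the 15 largest falls (right panel) in the lesion on day 20, with circles for NT-3 tube, squares for lesion control and triangles for normal cord (3 arrays each). In every gene shown the 3 NT-3 tube arrays lie on one side of the 3 lesion control arrays, as the choice of genes requires, and Arg1 in lesion control lies below normal cord.

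The chemokine and cytokine genes are shown first with their promoters, because several of the largest rises share a short motif there. The motif was GGG, then 2 bases of any kind, then TTTCC, searched on both strands, a form of the kappa B site that NF-kappa B binds in many inflammatory genes. RefSeq promoters (build GRCr8) reach from 250 bases before the transcription start to 50 after it. The motif lay in 7 of the 23 risen cytokine and chemokine genes with a promoter in that table (30.4%), namely Il1rn, Il6, Ccl9, Ccl20, Cxcl1, Cxcl2 and Cxcl6, against 414 of 27457 promoters in all (1.51%). None of the 23 fallen muscle genes or the 10 fallen sensory ganglion genes with a promoter held it. A second motif, CTA, then 4 bases of any kind, then TAG, reads alike on both strands. It is looser than the site of the muscle regulator MEF2, whose 4 middle bases are A or T. The motif lay in 3 of the 23 muscle promoters (Ttn, Ldb3 and Smpx), 1 of the 23 cytokine promoters (Ccl20) and none of the 10 sensory ganglion promoters, against 1051 of all promoters (3.83%). Among the middle bases the Ldb3 match holds a C and the Ccl20 match a G, so neither is such a site. The Ldb3 match also begins after the transcription start. Cxcl1, Cxcl2 and Cxcl6 are related genes lying near each other on chromosome 14 and are not independent of each other. A match is a description of the letters only. Cytokine and chemokine genes that did not rise were not searched as a set, so the share cannot be tied to rising. The 5 promoters below belong to the genes with a kappa B motif that are among the 15 largest rises, and capitals mark that motif on either strand. They lie at chr14:17596368-17596667 (minus strand) for Cxcl6, chr9:91836909-91837208 (plus strand) for Ccl20, chr14:17467206-17467505 (minus strand) for Cxcl2, chr3:27520072-27520371 (plus strand) for Il1rn and chr4:5894526-5894825 (minus strand) for Il6.
Cxcl6: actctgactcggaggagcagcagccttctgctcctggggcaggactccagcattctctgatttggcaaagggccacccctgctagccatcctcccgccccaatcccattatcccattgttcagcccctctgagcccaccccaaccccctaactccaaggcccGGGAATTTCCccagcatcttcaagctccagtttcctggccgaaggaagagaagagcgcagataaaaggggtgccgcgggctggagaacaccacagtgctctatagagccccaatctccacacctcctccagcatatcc
Ccl20: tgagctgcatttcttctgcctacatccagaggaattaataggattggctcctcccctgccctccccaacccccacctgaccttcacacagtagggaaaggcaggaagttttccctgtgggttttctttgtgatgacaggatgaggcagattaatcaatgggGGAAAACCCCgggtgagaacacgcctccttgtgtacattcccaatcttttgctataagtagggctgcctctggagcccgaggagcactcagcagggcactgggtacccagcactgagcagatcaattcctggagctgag
Cxcl2: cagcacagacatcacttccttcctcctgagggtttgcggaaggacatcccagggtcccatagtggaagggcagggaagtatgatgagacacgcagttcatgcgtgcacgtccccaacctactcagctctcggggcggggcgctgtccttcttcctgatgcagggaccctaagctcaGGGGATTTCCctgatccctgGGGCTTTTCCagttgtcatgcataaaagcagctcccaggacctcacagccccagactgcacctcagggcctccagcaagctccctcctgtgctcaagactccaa
Il1rn: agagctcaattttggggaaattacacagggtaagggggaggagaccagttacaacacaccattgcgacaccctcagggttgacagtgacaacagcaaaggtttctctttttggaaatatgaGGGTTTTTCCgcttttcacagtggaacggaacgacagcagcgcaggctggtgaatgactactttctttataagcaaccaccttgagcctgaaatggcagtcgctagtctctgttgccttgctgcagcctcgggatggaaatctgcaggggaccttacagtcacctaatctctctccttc
Il6: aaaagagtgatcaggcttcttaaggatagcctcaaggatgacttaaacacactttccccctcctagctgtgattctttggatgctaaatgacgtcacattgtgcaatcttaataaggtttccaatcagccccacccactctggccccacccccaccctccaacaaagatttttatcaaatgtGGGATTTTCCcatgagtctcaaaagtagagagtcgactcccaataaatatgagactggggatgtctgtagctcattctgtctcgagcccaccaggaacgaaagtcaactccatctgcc

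Of 35 cytokine and chemokine genes tested, 28 rose and none fell, with a median difference of 1.66. With all 39 genes of the list tested, dim ones included, 30 rose, with a median of 1.61. Cxcl6, a neutrophil-attracting chemokine, had values of 9.21, 9.23 and 9.47 in NT-3 tube, against 4.56, 4.85 and 4.74 in lesion control, a rise of 4.59 ± 0.27 (24.0-fold, adjusted p = 6.56e-14). Ccl20, which attracts cells bearing CCR6, had 11.08, 10.36 and 13.05 in NT-3 tube, against 7.17, 7.36 and 7.13 in lesion control (4.28 ± 0.45). In both genes the groups are far apart, and for Ccl20 the NT-3 tube array 5 stands well above the other two. Cxcl2, another neutrophil chemokine, had 9.62, 8.92 and 9.76 in NT-3 tube, against 4.81, 5.79 and 5.02 in lesion control (4.23 ± 0.42). Il6, the acute-phase cytokine, had 9.12, 7.98 and 10.98 in NT-3 tube, against 5.16, 6.12 and 5.33 in lesion control (3.82 ± 0.41). Il6 follows Ccl20 in having its highest value on array 5 and its lowest on array 3. Il1rn, the natural antagonist of the interleukin-1 receptor, had 10.34, 10.52 and 9.80 in NT-3 tube, against 6.06, 6.15 and 6.53 in lesion control (3.97 ± 0.35). Its agonist Il1b had 12.23, 11.88 and 11.22 in NT-3 tube, against 8.58, 8.71 and 8.73 in lesion control. So all 3 NT-3 tube arrays lay above lesion control for the agonist and for the antagonist. Saa3, an acute-phase serum amyloid, had 10.38, 10.06 and 10.51 in NT-3 tube, against 5.77, 6.21 and 5.69 in lesion control (4.43 ± 0.38). Ccl7, a monocyte chemokine, had 11.58, 11.32 and 11.97 in NT-3 tube, against 8.31, 8.55 and 8.36 in lesion control (3.22 ± 0.23). In both genes the NT-3 tube arrays lie close together and far above lesion control. Serpinb2, an inhibitor of plasminogen activators, rose by 3.53 ± 0.37, and Ubd, a ubiquitin-like protein induced by cytokines, by 3.70 ± 0.56. Tnf rose by only 0.67 ± 0.11, and Nos2, the inducible nitric oxide synthase of classically activated macrophages, was at 8.34 to 8.74 in NT-3 tube, against 8.50 to 8.64 in lesion control. Of 9 neutrophil genes 3 rose and none fell, with a median of -0.61. In that list S100a8 and S100a9 differed by -0.97 ± 0.79 and -0.61 ± 0.75 without passing the test.

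Macrophage and antigen presentation genes were higher in NT-3 tube. Arg1 had 12.78, 11.72 and 11.52 in NT-3 tube, against 6.73, 6.59 and 6.59 in lesion control, a rise of 5.37 ± 0.30 (41.4-fold, adjusted p = 2.26e-14). Normal cord, at 7.71, 7.55 and 7.86, lay between the groups, above lesion control. Of 27 microglia and macrophage genes 19 rose, among them the integrin chains Itgax (2.29 ± 0.20) and Itgam (1.97 ± 0.16) and the co-receptor for lipopolysaccharide Cd14 (2.31 ± 0.17). The lysosomal macrophage marker Cd68 rose less, by 0.78 ± 0.15, and the resident microglia gene P2ry12 did not pass the test (-0.19 ± 0.23, adjusted p = 0.576). Of 17 genes of alternative activation 9 rose, led after Arg1 by the chemokine Ccl17 (2.13 ± 0.36) and the lectin Clec10a (1.66 ± 0.17), and Retnla fell by 0.54. The 10 tested genes of MHC class II presentation all rose, by a median of 1.54. RT1-Db1, a class II beta chain, had 12.99, 13.08 and 12.82 in NT-3 tube, against 11.15, 10.99 and 11.09 in lesion control.

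Lymphocyte genes were higher too. Of 17 T cell and NK cell genes 16 rose, with a median of 1.36. Cd3d, a chain of the T cell receptor complex, had 9.34, 8.76 and 9.0 in NT-3 tube, against 6.39, 6.69 and 6.21 in lesion control (2.6 ± 0.25). The groups are widely separate. Plasma cell genes were another matter, since the NT-3 tube arrays spread over a wide range. Mzb1, a chaperone of antibody assembly, had 11.27, 8.28 and 6.21 in NT-3 tube, against 6.46, 5.83 and 6.31 in lesion control. Jchain, which links antibody subunits, had 10.73, 9.27 and 8.14 in NT-3 tube, against 7.97, 7.71 and 7.85 in lesion control. Of the B cell and plasma cell list 4 of 8 rose, but for Mzb1 the NT-3 tube array 5 lies within the lesion control range. Without NT-3 tube array 2 none of the 8 was called in limma, with 1 under an unadjusted p of 0.05, and without lesion control array 2 the count was 2. With only the 6 arrays in the limma fit, none of its 7 tested genes passed, and 1 had an unadjusted p under 0.05.

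MHC class I was examined on each array, since its RT1-CE10 transcript divides groups elsewhere in the series. RT1-CE10 had 10.05, 8.38 and 11.26 in NT-3 tube, against 7.09, 7.33 and 7.53 in lesion control and 6.66, 6.54 and 6.46 in normal cord. The difference was 2.58 ± 0.43 (5.98-fold, adjusted p = 2.42e-05). The groups do not overlap, yet the NT-3 tube arrays span almost 3 units, and array 3 lies nearer to the lesion control arrays than to array 5. An exact two-sided permutation test over the 6 arrays gave p = 0.1, the smallest p that 3 against 3 allows. Leaving out arrays 2 and 5 together gave 1.06 with adjusted p = 0.114. That fit holds 1 NT-3 tube array, assumed to vary like the other groups, and since the arrays left out are the 2 highest, a smaller difference was fixed by the choice. The related RT1-CE12 had 12.19, 12.21 and 13.03 in NT-3 tube, against 11.17, 11.27 and 11.23 in lesion control (1.25 ± 0.18). RT1-A3, a further class I gene, had 6.28, 5.83 and 7.42 in NT-3 tube, against 5.42, 5.33 and 5.64 in lesion control. In these 3 genes array 5 is the highest. The RT1-CE10 probe set carries the suffix that Affymetrix gives to sets open to cross-hybridisation with related sequences.

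Of 20 class I and antigen processing genes, RT1-CE10, RT1-CE12 and RT1-A3 included, 16 rose, with a median of 0.96. The mean of this list was 10.33, 10.17 and 10.38 in NT-3 tube, against 9.36, 9.39 and 9.39 in lesion control. The peptide transporter Tap1 had 9.73, 9.74 and 9.6 in NT-3 tube, against 8.28, 8.34 and 8.13 in lesion control. The light chain B2m, near the top of the scale in both groups, did not pass the test (0.12 ± 0.06). Tap1 was at similar levels on NT-3 tube arrays 2, 3 and 5. The part of RT1-CE10 in the other differences was not tested.

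Among matrix-degrading enzymes 2 metalloproteinases were among the leading rises. Mmp3, stromelysin-1, had 12.49, 11.95 and 11.11 in NT-3 tube, against 6.57, 7.30 and 7.02 in lesion control, a rise of 4.89 ± 0.55 (29.6-fold). Mmp13, a collagenase, had 12.52, 10.88 and 9.89 in NT-3 tube, against 7.20, 7.66 and 7.41 in lesion control (3.67 ± 0.78). Both metalloproteinases are highest on NT-3 tube array 2 and lowest on array 5, an order unlike that of Il6. Of 26 proteases and inhibitors 13 rose and 1 fell, with a median of 0.22. Of 36 fibroblast and fibrillar matrix genes 8 rose and 4 fell, with a median of 0.09, and only 1 or 2 fell without NT-3 tube array 5 or without any 1 of the lesion control arrays. The fibrillar collagen Col1a1 was at 13.51, 13.68 and 13.60 in NT-3 tube, against 13.60, 13.51 and 13.52 in lesion control, both far above the 8.01 to 8.52 of normal cord. Tnn, which encodes tenascin-N, rose by 1.46 ± 0.38, and Col14a1, a fibril-associated collagen, fell by 0.84. Sfrp2, a secreted modulator of Wnt signalling, had 11.41, 11.64 and 10.62 in NT-3 tube, against 12.83, 12.86 and 12.88 in lesion control (-1.63 ± 0.31).

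Genes of low-oxygen metabolism and of cell division rose together with the inflammatory ones. Of 20 hypoxia and glycolysis genes 18 rose, by a median of 0.83. Car9, a carbonic anhydrase induced by hypoxia, had 7.83, 7.97 and 8.72 in NT-3 tube, against 5.87, 6.17 and 6.06 in lesion control (2.14 ± 0.29). The growth factor Vegfa and the glucose transporter Slc2a1 rose by 1.01 ± 0.13 and 1.19 ± 0.12. Of 28 cell cycle genes 24 rose, with a smaller median of 0.66, and the proliferation marker Mki67 had 10.04, 9.75 and 9.54 in NT-3 tube, against 8.67, 9.04 and 8.72 in lesion control. Inhba, the activin A subunit, rose by 2.51 ± 0.19 and Spp1, osteopontin, by 1.85 ± 0.21. Endothelial genes went both ways, with 4 of 32 higher and 8 lower. The sialomucin Emcn fell by 1.17 and the tight junction gene Cldn5 by 0.83.

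**Figure D2:**
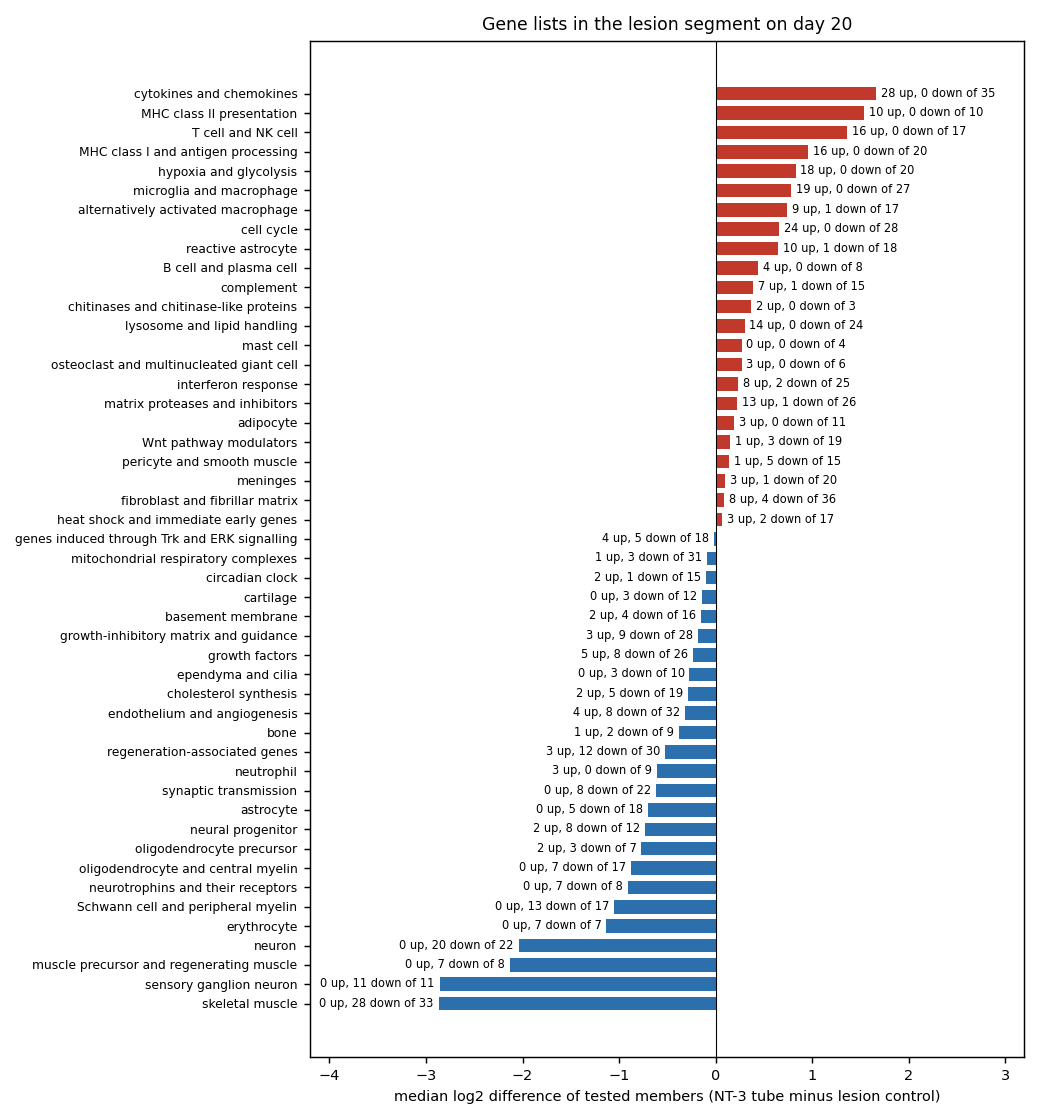
Median log2 difference (NT-3 tube minus lesion control) of the tested members of 48 gene lists in the lesion on day 20, with the number of members that rose and fell. Cytokines, with 28 of 35 higher, are at the top, and skeletal muscle, with 28 of 33 lower, is at the bottom, against 19.5% higher and 14.3% lower among all genes.

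Skeletal muscle transcripts were examined on each array in the same way. The mean log2 value of 35 muscle genes was 5.79, 6.58 and 6.15 in NT-3 tube, against 8.24, 9.57 and 9.08 in lesion control and 6.17 to 6.24 in normal cord. The difference was -2.79, with an exact two-sided permutation p of 0.1, again the smallest possible. The NT-3 tube arrays lay on both sides of normal cord, and the lesion control arrays were above it. Of 33 muscle genes tested 28 fell and none rose, with a median of -2.87. Myl1, a fast myosin light chain, had 5.81, 9.67 and 7.93 in NT-3 tube, against 12.34, 13.40 and 13.06 in lesion control (-5.13 ± 1.26, adjusted p = 0.00196). Acta1, skeletal actin, had 4.74, 8.41 and 6.85 in NT-3 tube, against 11.24, 12.28 and 12.04 in lesion control (-5.19 ± 1.18). Array 3 is the highest of the NT-3 tube arrays in both genes and array 2 the lowest, over a range of nearly 4 units. Genes of muscle precursors and regenerating fibres fell as well (7 of 8 tested), among them the embryonic myosin Myh3 (-3.51 ± 0.42) and the regulator Myog (-2.97 ± 0.59). With all 12 genes of that list tested, dim ones included, 10 fell, with a median of -1.62. All 7 erythrocyte genes tested fell, with a median of -1.13, but 4 of 7 did without lesion control array 2.

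The muscle mean of each array was then entered as a covariate. With it 2376 genes were higher and 1436 lower, 26 of 35 cytokine genes were higher and 11 of 11 sensory ganglion genes were lower, while 3 of 33 muscle genes were lower and 5 higher. Other lists lost calls: 1 of 8 B cell and plasma cell genes and 9 of 24 lysosome and lipid handling genes were higher, and 4 of 8 muscle precursor, 5 of 7 erythrocyte and 1 of 36 fibroblast and matrix genes were lower. Of 188 genes followed, 33 lost their call and 2 turned. Muscle and sensory ganglion means entered together left 551 genes higher (4.62%) and 83 lower (0.696%). In that fit 14 of 35 cytokine, 10 of 10 class II and 11 of 17 T cell and NK cell genes were called higher. Of 22 neuronal genes 0 were called lower, with 3 of the 22 under an unadjusted p of 0.05. Both means separate the arms on day 20 without overlap, so they carry part of the difference under test. Calls lost or kept in these fits therefore cannot show what tissue content accounts for.

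Genes of sensory ganglion neurons fell, with Calca first among them. Calca had 6.40, 6.36 and 6.37 in NT-3 tube, against 11.87, 12.54 and 12.27 in lesion control and 9.36, 9.27 and 9.44 in normal cord, a fall of 5.85 (57.7-fold, adjusted p = 1.84e-07). Scn9a, the sodium channel of pain fibres, had 3.51, 3.78 and 3.44 in NT-3 tube, against 7.50, 8.29 and 8.15 in lesion control (-4.40 ± 0.76). Prph, the intermediate filament of peripheral neurons, had 7.46, 7.71 and 7.03 in NT-3 tube, against 11.32, 12.05 and 11.90 in lesion control (-4.36 ± 0.71). In Calca, Scn9a and Prph the lesion control arrays also lie above normal cord. The mean of the 15 sensory ganglion genes was 5.80, 5.85 and 5.80 in NT-3 tube, against 7.88, 8.63 and 8.40 in lesion control and 6.74 to 6.81 in normal cord. The 11 tested members all fell, with a median of -2.86, including the nociceptor channels P2rx3 (-2.86 ± 0.47) and Trpv1 (-2.72 ± 0.42) and the actin regulator Avil (-2.67 ± 0.48). With all 15 genes tested, dim ones included, 13 fell, with a median of -2.72.

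General neuronal genes fell as well, though lesion control was itself below normal cord. Of 22 tested 20 fell, with a median of -2.04. The neurofilament gene Nefm had 8.99, 8.83 and 7.98 in NT-3 tube, against 12.61, 13.13 and 13 in lesion control and 13.97, 14.09 and 14.05 in normal cord. The 3 groups are in separate ranges. Genes of neurons that have their cell bodies in the cord were low on both sides. Gad1, which makes the transmitter GABA, had 5.53, 5.00 and 6.13 in NT-3 tube, against 6.54, 6.10 and 5.94 in lesion control and 11.07 to 11.19 in normal cord. Chat, the acetylcholine enzyme of motor neurons, had 5.00, 4.90 and 4.97 in NT-3 tube, against 4.84, 4.98 and 4.84 in lesion control and 8.00 to 8.21 in normal cord. For Gad1 and Chat the groups overlap, and neither passed the test (adjusted p = 0.353 and 0.815). Both groups were thus far below normal cord in these markers of spinal neurons. The wider list of synaptic transmission, which holds both genes, was lower in NT-3 tube. Of its 22 tested members 8 fell and none rose, with a median of -0.62. Its mean was 5.44 to 5.78 in NT-3 tube, against 6.34 to 6.46 in lesion control and 9.06 to 9.15 in normal cord. Tyrp1, known as an enzyme of pigment cells, had 5.22, 5.12 and 4.88 in NT-3 tube, against 9.18, 10.38 and 10.03 in lesion control (-4.79 ± 0.73). The pigment cell genes Dct (-0.38 ± 0.12), Pmel (-0.29 ± 0.09) and Mlana (1.12 ± 0.17) did not share a change of that size.

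Glial genes were lower to a smaller extent. Of 17 Schwann cell and peripheral myelin genes 13 fell, with a median of -1.05, among them the transcription factor Pou3f1 (-1.67 ± 0.30) and the adhesion molecule L1cam (-1.54 ± 0.25). Of 17 oligodendrocyte genes 7 fell and of 18 astrocyte genes 5 fell. Gfap, the astrocyte filament, had 12.30, 12.04 and 12.81 in NT-3 tube, against 13.42, 13.03 and 13.27 in lesion control, and did not pass the test (adjusted p = 0.133). The reactive astrocyte list ran the other way, with 10 of 18 higher. Its leading members Lcn2 (2.71 ± 0.55), C3 (2.39 ± 0.38) and Cd14 are also made by myeloid cells. Which cells gave these transcripts here was not tested.

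Of 10 genes of neurotrophins and their receptors on the array 8 were tested, and all 8 differences were negative. Ntf3 had 5.11, 5.18 and 5.19 in NT-3 tube, against 5.03, 5.39 and 5.18 in lesion control, which is below the limit for testing (6.55), and its array measures transcript, not the implanted protein. Ngfr had 6.62, 7.32 and 7.72 in NT-3 tube, against 9.01, 9.12 and 9.14 in lesion control (-1.87 ± 0.29). Ntrk3 had 5.67, 5.84 and 5.67 in NT-3 tube, against 6.70, 6.98 and 6.66 in lesion control and 7.63 to 7.83 in normal cord (-1.05 ± 0.24). In Ngfr and Ntrk3 the groups do not overlap. Bdnf, the brain-derived neurotrophin, fell by 1.13, its receptor Ntrk2 by 0.91, and the sorting receptors Sorcs2 and Sort1 by 0.91 and 0.65. Of 8 members tested 7 fell, and Maged1 did not pass the test (-0.11 ± 0.10). Without NT-3 tube array 2 only 4 of the 8 fell, and Ntrk2 and Sort1 were among those that lost the call. Genes induced through Trk and ERK signalling had a median of -0.02, with 4 of 18 higher and 5 lower. Among them Fosl1 rose by 1.09 ± 0.20, while Vgf, a neurotrophin-induced secretory peptide, fell by 1.62. Of 30 regeneration-associated genes 3 rose and 12 fell, with Stmn2, a growth cone protein, at -3.71 ± 0.67.

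The difference between arms on day 20 was set against the days beside it. On the other days of the lesion segment 334 genes were higher and 293 lower on day 10 (2.80% and 2.46%), and 999 higher and 1185 lower on day 30 (8.38% and 9.94%). A test of the day 20 difference against the mean of days 10 and 30 called 956 genes with a more positive difference on day 20 (8.02%) and 477 with a more negative one (4%). Without lesion control array 2 these counts were 508 and 177, without lesion control array 3 they were 561 and 278, and without NT-3 tube array 5 the first was 576. Of the 375 genes at least 2-fold higher on day 20, 140 (37.3%) were also called higher on day 10 and 275 (73.3%) on day 30. On day 3, when 9.99% of all genes were higher and 8.03% lower, 25 of the 375 were called higher and 117 lower. Of the 597 genes at least 2-fold lower on day 20, 33 (5.53%) were also called lower on day 10, 161 (27.0%) on day 30 and 447 (74.9%) on day 90, when 16.5% of all genes were higher and 12.3% lower.

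The difference between arms had a course of its own in each group of genes. Arg1 differed by -0.34 on day 3, 2.61 on day 10, 4.41 on day 30, 2.91 on day 60 and 1.38 on day 90. Its day 20 difference was 1.86 above the mean of days 10 and 30 (adjusted p = 0.00185). Mmp13 differed by 0.44 on day 3, 0.02 on day 10, 0.04 on day 30, -0.14 on day 60 and 1.67 on day 90, none of them called, and the test gave 3.64 (adjusted p = 0.0131). Myl1 differed by -4.22 on day 10 and -5.02 on day 30, and the test gave -0.51 (adjusted p = 0.864). Calca differed by 2.15 on day 3, -0.41 on day 10, -1.23 on day 30, -1.99 on day 60 and -2.62 on day 90, and the test gave -5.03 (adjusted p = 0.000606). It was thus lower in NT-3 tube after day 20 as well, and was called lower on days 60 and 90 (adjusted p = 0.0421 and 0.00741). All 11 tested sensory ganglion genes passed this test against days 10 and 30, 1 of 33 muscle genes did, and 14 of 35 cytokine genes did. For the ganglion genes both arms moved. Their mean on days 10, 20 and 30 was 6.91, 8.3 and 6.89 in lesion control, against 6.68, 5.82 and 6.27 in NT-3 tube. Calca had means of 9.85, 12.23 and 9.42 in lesion control, against 9.44, 6.38 and 8.18 in NT-3 tube. Lesion control was thus higher on day 20 than on the days beside it. The test leaves out the later days. On day 60, when 15.4% of all genes were higher and 10.4% lower, 10 of the 11 sensory ganglion genes were lower (median -1.65) with 10 of 22 neuronal genes, and on day 90 all 11 (-1.84) with 21 of 22 neuronal genes. Muscle genes were lower on those days too, 25 of 33 on day 60 and 18 of 33 on day 90. The day 20 difference was not tested against days 60 and 90.

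RT1-CE10 varied over the days and between arrays of 1 arm. On day 3 it was at 7.84, 9.26 and 10.06 in NT-3 tube, against 7.46, 7.97 and 8.12 in lesion control, so the NT-3 tube arrays spread widely and overlapped lesion control (1.2, adjusted p = 0.051). On day 10 it was at 8.47, 7.68 and 7.71 in NT-3 tube, against 7.49, 7.56 and 7.20 in lesion control. On day 30 both arms were high, at 11.71, 12.34 and 12.31 in NT-3 tube, against 11.7, 12 and 11.1 in lesion control. On day 60 both arms were low, at 7.69, 7.99 and 8.13 in NT-3 tube, against 7.86, 7.75 and 7.74 in lesion control. On day 90 only NT-3 tube was high, at 11.03 to 11.75, against 7.54 to 7.66 in lesion control. The day 20 difference exceeded the mean of days 10 and 30 by 2.05 (adjusted p = 0.0126). On day 30 RT1-CE10 differed by 0.52 (adjusted p = 0.436), and Arg1, Cxcl6 (2.39) and Il1rn (3.4) were higher in NT-3 tube. These 3 genes were picked from the leading rises of day 20. How their differences relate to RT1-CE10 was not tested.

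**Figure D3:**
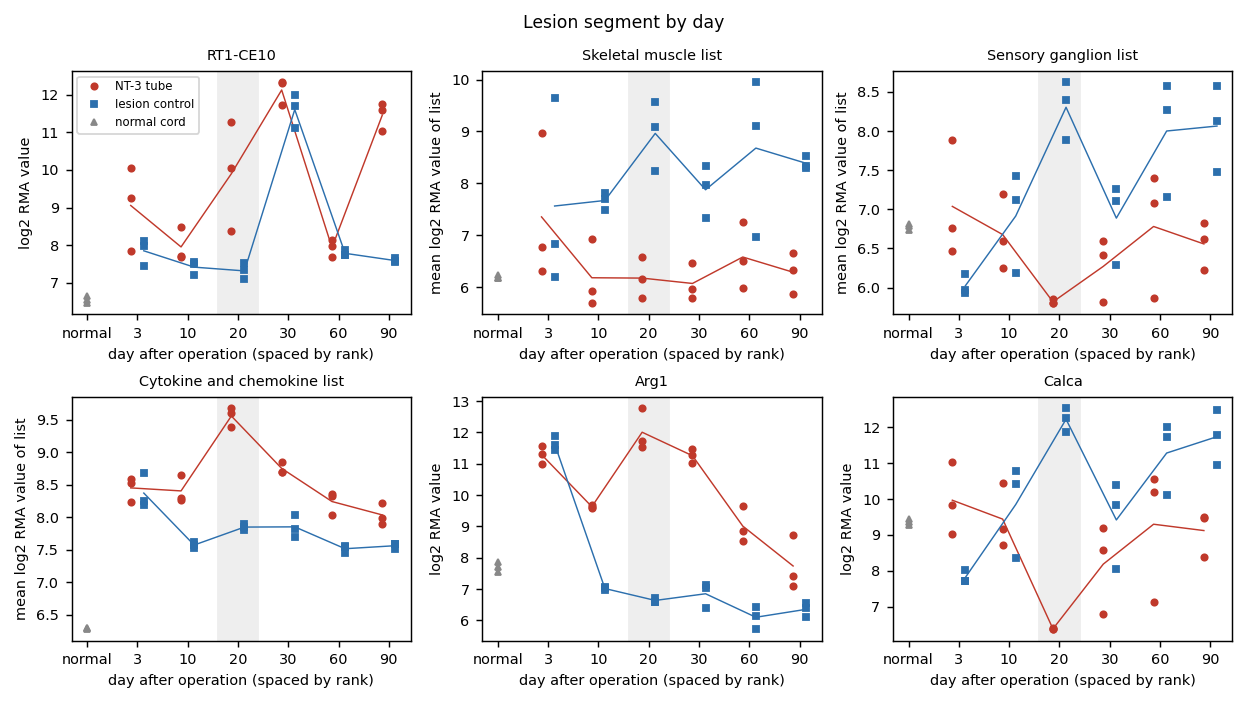
Lesion-segment level of RT1-CE10, Arg1 and Calca (log2 RMA value) and the mean log2 value of the skeletal muscle, sensory ganglion and cytokine lists, by day and spaced by rank, with normal cord at the left; circles are NT-3 tube arrays, squares lesion control arrays, and lines join group means. On day 20, shaded, the cytokine mean is 9.39 to 9.68 in NT-3 tube and 7.80 to 7.89 in lesion control, and Calca in NT-3 tube is at 6.36 to 6.40.

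The same comparison in the stumps of the cord on day 20 was far smaller. Rostral to the gap no gene rose and 2 of 11989 fell (0.0167%) in limma, Ccl17 and Iars1, with 785 genes under an unadjusted p of 0.05. Caudal to it 210 rose (1.75%) and 18 fell (0.150%). A test of the lesion difference against the mean of both stumps called 1635 genes with a more positive difference in the lesion (13.6%) and 1259 with a more negative one (10.5%). Arg1 had 7.62, 7.66 and 7.46 in the rostral NT-3 tube arrays, against 7.32, 7.35 and 7.19 in the rostral lesion control arrays. Caudally it had 7.75, 8.87 and 8.20 in NT-3 tube, against 7.03, 7.31 and 7.04 in lesion control (1.15, adjusted p = 0.011). The lesion exceeded the stumps by 4.65 for Arg1 (adjusted p = 4.03e-22). Of the 375 genes at least 2-fold higher in the lesion, 44 (11.7%) were also called higher caudally. Cxcl13, a B cell chemokine, opposed itself, with 3.70 ± 0.47 in the lesion and -1.80 caudally (adjusted p = 0.0456). RT1-CE10 differed by 0.50 rostrally and 0.28 caudally, neither called, and its difference in the lesion was 2.19 above their mean (adjusted p = 4.83e-06). Muscle genes differed by a median of 0.49 rostrally and 0.16 caudally, and sensory ganglion genes by -0.31 and -0.20, with none called by limma in either stump. An unadjusted p under 0.05 was found for 2 muscle genes rostrally, 0 caudally, and for 0 sensory ganglion genes in either.

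**Figure D4:**
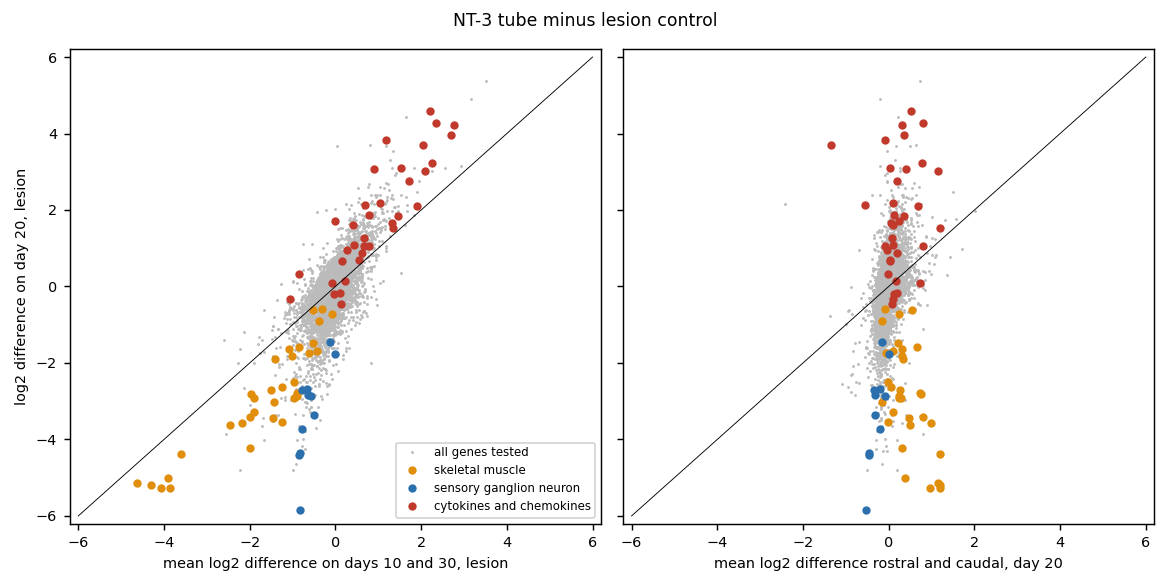
Log2 difference (NT-3 tube minus lesion control) of each gene in the lesion on day 20, on the vertical axis, against its mean difference in the lesion on days 10 and 30 (left) and in the rostral and caudal segments on day 20 (right), with the line of equality. Muscle genes lie low on both axes at left, sensory ganglion genes lie lower on the vertical axis than on the horizontal one, and at right both lists and the cytokines spread along the vertical axis; the 2 panels share the day 20 lesion arrays.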

How the data were processed

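RNA pools were hybridised to Affymetrix rat genome arrays, per the labels. The authors deposited log2 RMA values of 31099 probe sets, made with Affymetrix Expression Console and RMA per the submitters' processing notes, with versions not given in the sources used here. RMA compresses small differences near background and equalises arrays. Values were used as deposited.

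Probe sets with 1 gene symbol (20832) gave 14218 genes, each by its brightest set. 436 sets with several symbols and 9831 not listed were left out. Genes were tested where a group mean reached the 40th percentile (6.55). limma 3.58.1 (lmFit, eBayes, R 4.3.3) fitted 1 mean per arm and day over all lesion arrays and normal cord, and the stumps likewise, and all segments together for the test between them. P-values reflect how far pools differ, and 3 arrays a group limit the precision. Tested on simulated data for this comparison, over 11922 genes, 51% of genes changed by 0.5 log2 and 89% changed by 1 log2 were recovered, with 12 false among 152 calls. Within groups the median SD was 0.168 for NT-3 tube and 0.0961 for lesion control, and it was 0.120 between 5 arrays of 1 reference RNA.

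The members, the 48 lists and the tests were chosen with earlier results of these data known. Genes were named by rule: the 15 largest called rises and falls without overlap, the 4 largest called changes per list, all neurotrophin genes, RT1-CE10 and RT1-CE12, the 4 most variable muscle genes and the 4 largest per test between days or segments. Of 191 such genes 40 had another probe set that passed, none opposite by 0.5 log2 or more. Il1b, Tnf, Nos2, S100a8, S100a9, Cd68, P2ry12, Retnla, RT1-A3, B2m, Col1a1, Col3a1, P2rx3, Trpv1, Avil, Gad1, Chat, Dct, Pmel, Mlana, Gfap, Iars1 and the promoter motifs were chosen after their values were seen. Same-numbered arrays of the groups deviated with correlations of -0.10 and -0.02, so numbers were taken as names. Alternatives comprised filters, normalization, array weights, a replicate block, only the 6 arrays, other probe set choices, tissue means as covariates, a 1.5-fold minimum and leaving out arrays. Scan dates were not used here. Python 3.11.15 with pandas 2.3.3, numpy 2.4.6 and matplotlib 3.10.9 made tables and plots.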

Additional observations from a re-analysis of the deposited data

Results flagged for a closer look

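The difference between NT-3 tube and lesion control in the lesion was unlike that of the neighbouring days for many genes. Against the mean of days 10 and 30, limma called 956 genes with a more positive (8.02%) and 477 with a more negative difference (4%) on day 20. Of 189 named genes tested 82 were called. The naming rule took large day 20 differences and the largest of this test, so a high count was built in. The largest called differences were Mmp13 (3.64), Ubd (2.89), Saa3 (2.79) and Il6 (2.64) on the positive side and Calca (-5.03), Tyrp1 (-3.79), Fgf13 (-3.72) and Scn9a (-3.55) on the negative side. RT1-CE10 was also called, at 2.05.

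The difference was unlike that of the stumps on the same day for still more genes. Against the mean of the rostral and caudal segments, 1635 genes had a more positive (13.6%) and 1259 a more negative difference (10.5%) in the lesion. Of 189 named genes 146 were called, a count raised by the same naming rule. Mmp3 (5.08), Cxcl13 (5.05), Arg1 (4.65) and the class II gene RT1-Bb (4.57) led on one side, and the muscle genes Myh2 (-6.46), Acta1 (-6.39), Myl1 (-6.28) and Myl11 (-6.23) on the other. RT1-CE10 stood at 2.19. The causes were not tested.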

How the results depend on the processing

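With 3 pools a side the number of arrays limits what can be seen, and dim genes lie in the compressed range of RMA. Over 19 alternatives and 188 genes, 3046 of 3552 comparisons kept direction and call, 495 lost the call, 1 gained it and 10 turned; among the 30 leading genes 539 of 567 were kept. Array weights gave 3877 higher and 2852 lower genes, 3497 and 1700 for day 20 against its neighbours, and 3261 and 2300 for lesion against stumps, with RT1-CE10 at 1.21. A 1.5-fold minimum gave 337 and 291 (291 lower by 2-fold), 12 and 4, and 191 and 277. The replicate block, on numbers that share only a name, gave 1744 and 1572, and 467 and 271 against the neighbouring days, with RT1-CE10 at 1.85.

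2 alternatives were added after seeing the data. Muscle and sensory ganglion means as covariates gave 551 higher and 83 lower genes, 44 lower by 2-fold, 68 and 8 against the neighbouring days, and RT1-CE10 at 2.56 (adjusted p = 0.0533). Without NT-3 tube arrays 2 and 5, which leaves 1 array in that arm, assumed to vary like the other groups, the counts were 1226 and 890, 179 and 54, and 804 and 823, with RT1-CE10 at 1.06 (adjusted p = 0.114). RT1-CE10 ranged from 1.06 to 3.34 over 19 alternatives, with adjusted p from 9.86e-08 to 0.114, and lost its call in these 2. Genes turned only under the tissue covariates: Synpo2 (0.38) and Cox8b (0.05) with muscle alone, and Myl11 (0.25), Myl1 (0.41), Fgf13 (0.19), Myog (0.06), Rsad2 (0.15), Cd55 (0.41), Synpo2 (0.41) and Cox8b (0.35) with both. Myl11, Myl1 and other muscle genes are themselves part of the muscle mean, and both means separate the arms on day 20.

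Leaving out each array in turn gave 1827 to 2392 higher and 1291 to 1633 lower genes, 361 to 385 and 526 to 634 by 2-fold, 508 to 1232 and 177 to 510 against the neighbouring days, and 1267 to 1689 and 1076 to 1275 against the stumps. RT1-CE10 ranged from 1.90 to 3.34 and the muscle mean from -3.15 to -2.49. The cause of these shifts was not tested.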

Other observations

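Of 24 lysosome and lipid handling genes 14 rose and none fell, among them the scavenger receptor Cd36, at log2 levels of 11.08, 11.11 and 10.85 in NT-3 tube, against 9.27, 9.23 and 9.24 in lesion control, and the lipid droplet coat protein Plin2 (log2 difference 0.83 ± 0.11, SE). Of 15 complement genes 7 rose and 1 fell. The terminal component C6 had 9.97, 10.07 and 10.89 in NT-3 tube, against 7.68, 8.03 and 7.84 in lesion control, and the decay-accelerating factor Cd55 fell by 0.94. Interferon response genes went both ways, with 8 of 25 higher and 2 lower: the chemokine Cxcl9 rose by 1.71 ± 0.41, Rsad2 fell by 1.42 and the regulator Irf7 did not pass the test (0.09 ± 0.34). The osteoclast and giant cell list had 3 of 6 higher, with the gelatinase Mmp9 at 10.75, 10.94 and 10.02 in NT-3 tube, against 8.43, 8.86 and 8.51 in lesion control, and the bone-resorbing protease Ctsk higher by 0.40 ± 0.14.

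Of 31 genes of the mitochondrial respiratory complexes 27 did not pass the test. Of the 3 that fell, 2 were Cox8b (-3.52 ± 0.90) and Cox6a2 (-3.43 ± 0.75), both known as heart and skeletal muscle forms of cytochrome oxidase subunits, in arrays whose muscle transcripts were lower too. Of 19 cholesterol synthesis genes 5 fell and 2 rose, and the sterol reductase Tm7sf2 was among the falls (-0.66 ± 0.14). Of 15 circadian clock genes 2 rose and 1 fell, with the clock repressors Cry1 higher by 0.49 ± 0.14 and Cry2 lower (-0.36 ± 0.12), though a second probe set of Cry2 differed by 0.16 the other way. Irf7 was chosen after its values were seen.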
